A study of Homo sapiens with 21 samples.

Results

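The libraries described here are the 6 vehicle-treated cultures of 2 inducible shRNA lines made from BT-549, an established triple-negative breast cancer cell line with wild-type BRCA1, out of 21 libraries in the series. The first group is 3 libraries of BT-549/tet-MYCshRNA mammospheres at serial passage 8 and the second is 3 libraries of BT-549/tet-MUC1shRNA mammospheres at serial passage 6. Both lines carry a lentiviral pLKO-tet-puro vector, in which doxycycline (DOX) switches on an shRNA against MYC or against MUC1, and both were selected in puromycin. Both were grown as mammospheres, that is, in serum-free MammoCult medium on ultra-low attachment plates, and both received 0.1% DMSO and no DOX. The sources used here do not say whether a line is 1 clone or a pool of transduced cells. A vehicle-treated line with a control shRNA was not analysed here, and the labels name no library preparation or sequencing batch. The line, the passage (8 against 6) and any batch therefore cannot be told apart, and each difference below is a difference between these 2 sets of cultures. For reference, values are given for 3 libraries of untransduced BT-549 mammospheres at passage 6 (called 3D cells), and for 3 libraries of each shRNA line treated with 500 ng/ml DOX.

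The series as a whole asked how MUC1-C, the transmembrane subunit of the mucin MUC1, and MYC shape the metabolism of breast cancer stem-like cells grown in 3D. Setting the vehicle cultures of the shRNA lines side by side shows how far 2 derivatives of the same parental cells differ without DOX. As background, a cell line is a mixed population whose subclones differ in the genes they express. The tet vector carries a repressor that DOX releases from the shRNA promoter, so a vehicle culture serves as the baseline of its line. Serial passage of mammospheres is used to keep cells that divide without attachment. In bulk RNA, fewer cells of a type and less RNA per cell cannot be told apart.

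RNA was enriched for poly(A) and read with paired ends on a stranded kit, and the values used are raw counts per gene. The tet-MYCshRNA vehicle libraries held 74652324, 99751717 and 60288513 counts and the tet-MUC1shRNA vehicle libraries 41132120, 44546762 and 53548353 counts, so counting error was small for all but the lowest genes and the spread between cultures set the precision. Levels are given below in CPM, the count of a gene in each library relative to that library's total, scaled over all 21 libraries, and differences as the log2 of tet-MYCshRNA over tet-MUC1shRNA ± SE, from edgeR's quasi-likelihood test on the 6 libraries. A gene was called at a Benjamini-Hochberg adjusted p under 0.1 and an absolute log2 difference over 1.5. The labels describe cells cultured in triplicate, so p-values measure only the spread between these cultures.

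One feature of the counts bears on everything that follows. The 6 tet-MUC1shRNA libraries, with vehicle and with DOX alike, stood apart from the other 15 libraries in reads given to pseudogenes. Processed pseudogenes are copies of spliced mRNAs in the genome and share sequence with their parent genes. The pseudogene EEF1A1P5 had 1599 to 2794 CPM in the 6 libraries and 177 to 326 CPM in the other 15. RN7SKP80, a copy of the 7SK RNA gene, had 3.00 to 4.56 CPM against 1253 to 2961 CPM. Summed over all processed pseudogenes the 6 libraries held 6722 to 10973 CPM and the others 3290 to 6356 CPM. Neither range overlapped the other, and the direction was not the same for every pseudogene. Single protein-coding genes stood apart too. CSNK2A3 had 4.73 to 7.16 CPM in the 6 libraries and 0.33 to 0.949 CPM in the tet-MYCshRNA libraries and 3D cells. FKBP1C had 21.3 to 28.1 CPM against 2.89 to 4.97 CPM, in the same order. The part of read assignment in these values was not tested. Results are therefore given for protein-coding genes as well as for all genes, and parent genes with many pseudogene copies, such as ribosomal protein genes, FTL and GAPDH, are uncertain.

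**Figure D1:**
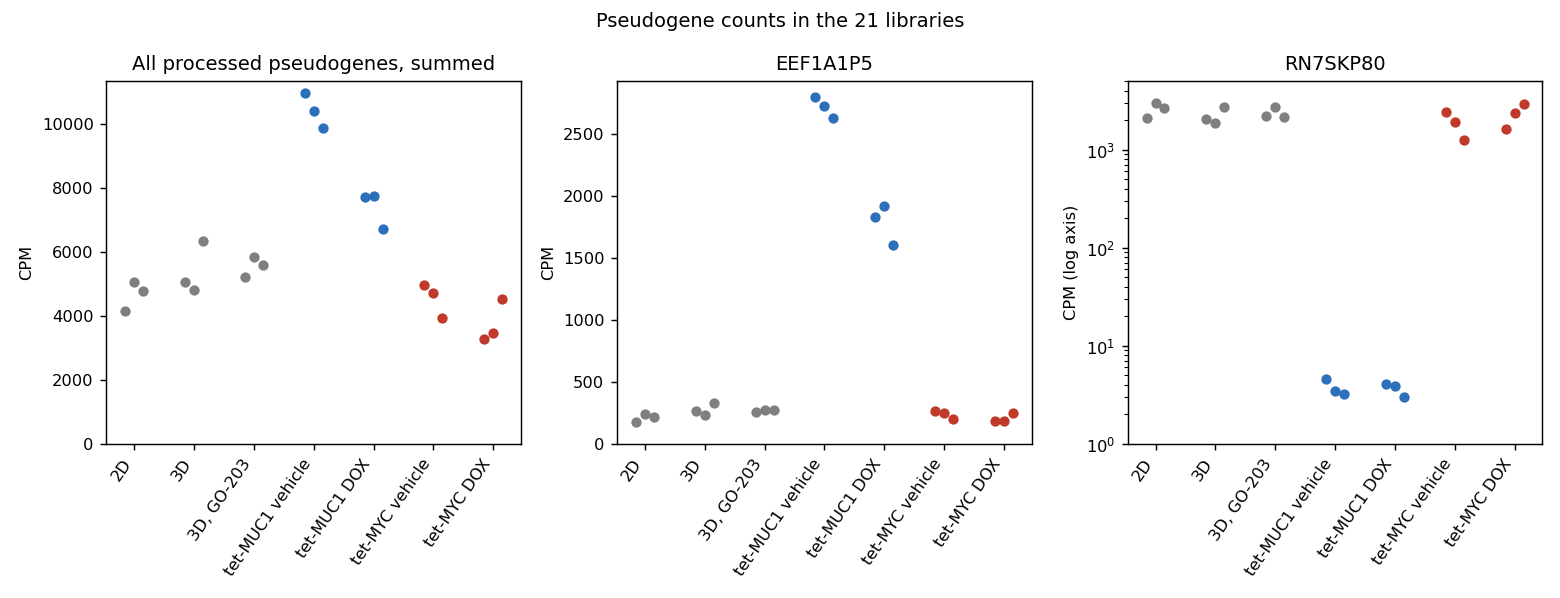
CPM in each of the 21 libraries for all processed pseudogenes summed (left), EEF1A1P5 (middle) and RN7SKP80 (right, log axis), with 3 points for each of the 7 groups and tet-MUC1shRNA libraries in blue, tet-MYCshRNA libraries in red and libraries of untransduced cells in grey. The 6 tet-MUC1shRNA libraries lie above all others for the sum and for EEF1A1P5 and below all others for RN7SKP80.

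Both lines carried the markers of BT-549. VIM, the mesenchymal intermediate filament, had 2507, 2473 and 2458 CPM in tet-MYCshRNA and 1068, 1066 and 1115 CPM in tet-MUC1shRNA. FN1, which encodes fibronectin, had 5202, 5172 and 5253 CPM in tet-MYCshRNA and 10941, 9879 and 9849.5 CPM in tet-MUC1shRNA. The epithelial genes EPCAM and CDH1 and the progesterone receptor PGR did not exceed a mean of 0.05 CPM in either line. VIM was higher and FN1 lower in tet-MYCshRNA, by log2 1.19 ± 0.04 and -0.98 ± 0.05, both short of the call. Markers of other cell types did not move as 1 block. The summed luminal marker list had 76.5 to 81.5 CPM in tet-MYCshRNA and 133 to 154.5 CPM in tet-MUC1shRNA, the immune list 0.595 to 0.91 CPM and 1.09 to 1.56 CPM, the endothelial list 7.09 to 7.96 CPM and 5.95 to 6.14 CPM, and the fibroblast and pericyte list 329 to 351 CPM and 523 to 545 CPM. Of 10 fibroblast and pericyte markers tested 1 was called higher and 4 lower, and of 3 endothelial markers 1 was called lower. Of 4 luminal and 3 immune markers 0 were called. Over all genes 10.6% were called. The part of these markers in the differences below was not tested.

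The shRNA targets themselves differed by less than the call requires. MUC1 had 67.5, 68.1 and 72.6 CPM in tet-MYCshRNA and 101, 82.5 and 85.2 CPM in tet-MUC1shRNA, against 212, 219 and 177 CPM in 3D cells. The log2 difference was -0.37 ± 0.07 with an adjusted p of 0.00014 by edgeR's quasi-likelihood test, which did not reach the call. MYC had 446, 424 and 382 CPM in tet-MYCshRNA and 239.6, 252 and 235 CPM in tet-MUC1shRNA, against 577, 545 and 584 CPM in 3D cells. Its log2 difference of 0.78 ± 0.05, with the higher level in the line whose shRNA targets MYC, was also under the call. Both genes lay below the 3D cells in the vehicle libraries of both lines. Each was the lower in the line whose shRNA does not target it. Whether the shRNA was made without DOX was not tested. With DOX, MUC1 was at 20.2, 21.6 and 23.1 CPM in tet-MUC1shRNA and MYC at 239, 282 and 304 CPM in tet-MYCshRNA, so each target was lower than in its own vehicle libraries with no overlap.

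The vehicle cultures differed over much of the transcriptome. Of 19140 genes tested, 2022 (10.6%) were called, 992 of them (5.18%) higher and 1030 (5.38%) lower in tet-MYCshRNA. By adjusted p alone 6418 genes (33.5%) were higher and 6364 (33.2%) lower, since the spread between cultures was small, with a biological coefficient of variation of 0.0739. The median absolute log2 difference over all genes was 0.51 and the median difference 0.01. Among protein-coding genes 471 were higher and 600 lower of 13160 tested (8.14%). Among processed pseudogenes 261 were higher and 195 lower of 1666 tested (27.4%), so pseudogenes made up 22.6% of all called genes and 8.70% of those tested. Most genes in the lists below are protein-coding. The shares of all genes called that stand beside them include the pseudogenes and run above those of protein-coding genes alone. For scale, the 2 lines with DOX differed by 3265 of 20222 genes (16.1%), tet-MUC1shRNA vehicle differed from 3D cells by 1575 of 18409 genes (8.56%), and tet-MYCshRNA vehicle differed from 3D cells by 1158 of 19486 genes (5.94%). With protein-coding genes alone in the fit the order of the last pair turned, with 802 and 866 genes. The last pair share the 3D libraries and each shares a vehicle group with the main comparison, so these counts are not independent of one another.

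Among called protein-coding genes with a mean normalized count of at least 100, the largest difference upward was in ALDH1A1, the retinaldehyde dehydrogenase used as a marker of stem-like breast cells. It had 23.7, 22.2 and 22.8 CPM in tet-MYCshRNA and 0.259, 0.373 and 0.387 CPM in tet-MUC1shRNA, and no count in 3D cells. The log2 difference was 6.03 ± 0.14, at an adjusted p of 4.6e-16 by edgeR. The 12 largest rises and the 12 largest falls were taken among genes of this kind whose libraries did not overlap between the lines, so that their separation is fixed by the choice. The rises had log2 differences of 4.17 to 6.03 and adjusted p between 4.6e-16 and 2.3e-08 by edgeR. GJB2, which encodes the gap junction protein connexin 26, had 13.8, 14.6 and 14.3 CPM in tet-MYCshRNA and 0.571, 0.0933 and 0.62 CPM in tet-MUC1shRNA. NETO1, an auxiliary subunit of glutamate receptors, had 10.8, 9.67 and 8.75 CPM in tet-MYCshRNA and 0.311, 0.303 and 0.31 CPM in tet-MUC1shRNA. PTPRZ1, a receptor tyrosine phosphatase of neural progenitors, had 3.34, 4.14 and 3.99 CPM in tet-MYCshRNA and 0.156, 0.0933 and 0.116 CPM in tet-MUC1shRNA. All 4 were at most 1 CPM in tet-MUC1shRNA and at 3.82 CPM or more on average in tet-MYCshRNA.

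SEMA7A, a membrane-anchored semaphorin, had 10.1, 10.2 and 7.96 CPM in tet-MYCshRNA and 0.493, 0.187 and 0.348 CPM in tet-MUC1shRNA. For UNC13A, a synaptic vesicle priming factor, the level in 3D cells was intermediate. It had 40, 40.4 and 38.3 CPM in tet-MYCshRNA and 2.90, 1.77 and 1.98 CPM in tet-MUC1shRNA, and 20.5, 21.4 and 20.9 CPM in 3D cells. The remaining genes among the 12 were IGSF10, RTN1, ST18, P2RY8, ADGRL3 and FMN1, with log2 differences of 5.95, 4.47, 4.35, 4.34, 4.32 and 4.24. ST18 is a zinc-finger transcription factor, P2RY8 a G protein-coupled receptor, ADGRL3 a latrophilin and FMN1 a formin that nucleates actin filaments. Against 3D cells, 11 of the 12 were called in tet-MYCshRNA and 7 in tet-MUC1shRNA, beside 5.94% and 8.56% of all genes. The genes were chosen for large differences in the same vehicle libraries, which by itself makes such calls likely.

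The 12 largest falls spanned log2 differences of -8.43 to -3.73, with adjusted p between 5.9e-18 and 3e-07 by edgeR's test. DNAH2, a dynein heavy chain of motile cilia, had 0, 0.06 and 0.0807 CPM in tet-MYCshRNA and 17.9, 15 and 17.1 CPM in tet-MUC1shRNA. It was also near 0 in 3D cells, with 0.203, 0.0962 and 0.0753 CPM. KCND1, a voltage-gated potassium channel subunit, had 0.73, 1.16 and 1 CPM in tet-MYCshRNA and 85.6, 73 and 68 CPM in tet-MUC1shRNA. Its 3D level of 1.02, 0.808 and 0.723 CPM lay with tet-MYCshRNA, so for KCND1, as for DNAH2, the tet-MUC1shRNA libraries were the ones set apart. CIDEC, a lipid droplet protein, had 0.257, 0.53 and 0.387 CPM in tet-MYCshRNA and 8.22, 8.47 and 8.77 CPM in tet-MUC1shRNA, and its 3D level of 11.4, 10.2 and 10.6 CPM lay with tet-MUC1shRNA. FGF19, an endocrine fibroblast growth factor, had 0.189, 0.14 and 0.129 CPM in tet-MYCshRNA and 3.32, 4.67 and 2.79 CPM in tet-MUC1shRNA. SERPINA3, a secreted serine protease inhibitor, had 0.568, 0.53 and 0.42 CPM in tet-MYCshRNA and 11.3, 17 and 15.6 CPM in tet-MUC1shRNA.

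NOTCH3, a receptor of the NOTCH family, had 2.99, 2.99 and 3.68 CPM in tet-MYCshRNA and 45.9, 43.6 and 43.3 CPM in tet-MUC1shRNA, with 14.1, 13.9 and 13.4 CPM in 3D cells. CNR1, the cannabinoid receptor CB1, had 1.78, 1.80 and 1.92 CPM in tet-MYCshRNA and 23.8, 22.9 and 25.9 CPM in tet-MUC1shRNA, and 24.9, 28.2 and 24.4 CPM in 3D cells. IFITM2, an interferon-induced membrane protein, HS3ST1, a heparan sulfate sulfotransferase, and CHI3L1, a secreted chitinase-like glycoprotein, had log2 differences of -4.14, -3.93 and -3.90 and stayed under 8 CPM in both lines. The other members, the metallothioneins MT1M and MT1F, are described with their family below. Against 3D cells, 6 of the 12 were called in tet-MYCshRNA and 8 in tet-MUC1shRNA, beside 5.94% and 8.56% of all genes. As for the rises, the choice of large line differences by itself makes such calls likely.

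**Figure D2:**
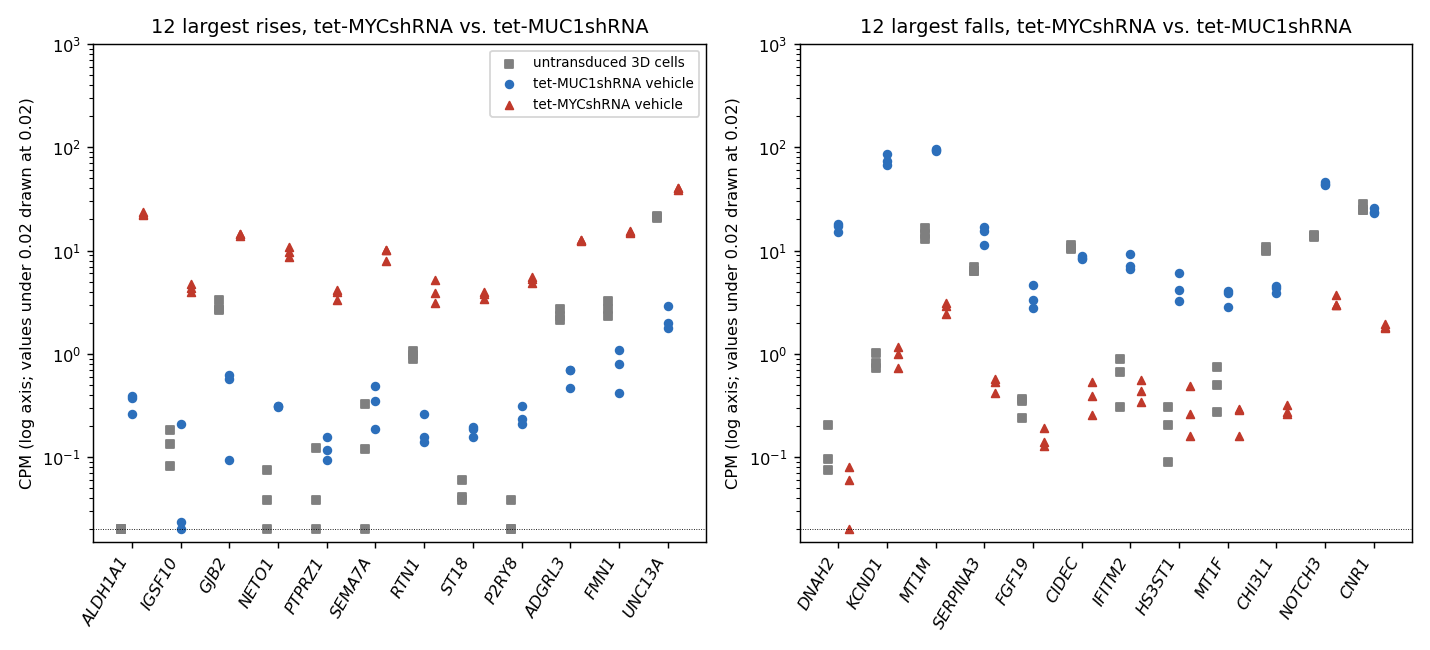
CPM on a log axis in each library of tet-MYCshRNA vehicle (red triangles), tet-MUC1shRNA vehicle (blue circles) and untransduced 3D cells (grey squares) for the 12 protein-coding genes with the largest rises (left) and the largest falls (right), values under 0.02 being drawn at 0.02. The genes were chosen for not overlapping between the lines, and the 3D cells lie with tet-MYCshRNA for DNAH2 and KCND1 and with tet-MUC1shRNA for CIDEC and CNR1.

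Some genes were close to absent in 1 line. Of all genes tested, 13 averaged at least 1 CPM in 1 line with no more than 3 counts in any library of the other. The lncRNA ENSG00000285831, on chromosome 5, was the single gene of the 13 present in tet-MUC1shRNA. It averaged 43.8 CPM there, with 4 counts in all over the tet-MYCshRNA libraries, and was at least 1105-fold higher when the floor is set at 3 counts per library. Of the 12 present in tet-MYCshRNA, 8 were processed pseudogenes, the class in which the tet-MUC1shRNA libraries stood apart. PCDH15, a cadherin of sensory hair cells, was the single protein-coding gene of the 12, with 2.31, 1.96 and 2.21 CPM and no count in the tet-MUC1shRNA libraries, at least 31.5-fold higher. The lncRNA PYDC2-AS1 averaged 2.60 CPM, was at least 37.9-fold higher and had no count in 3D cells.

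**Figure D3:**
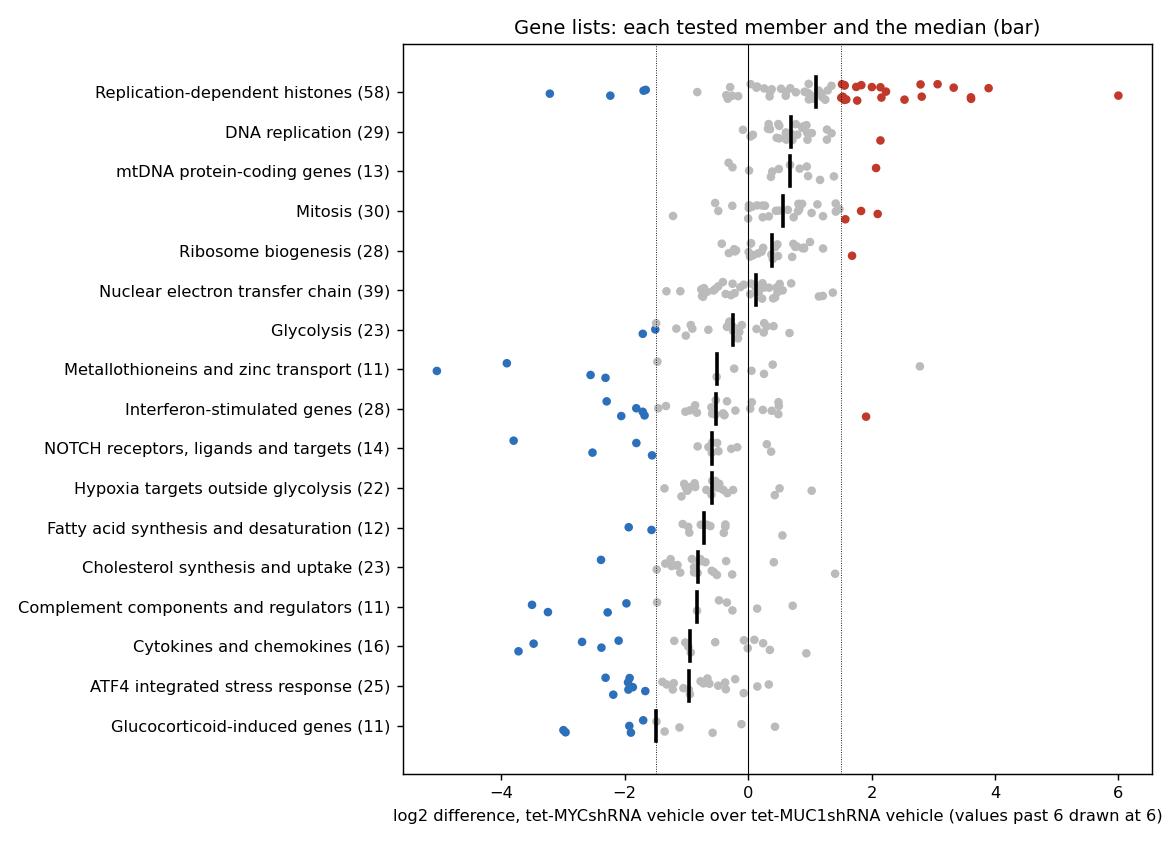
Log2 difference between the lines for each tested member of 17 gene lists (points; red, called higher in tet-MYCshRNA; blue, called lower; grey, not called) with the median as a bar, the number tested in brackets, and dotted lines at ±1.5; values past 6 are drawn at 6. The lists for histones, DNA replication, mtDNA genes, mitosis and ribosome biogenesis have medians between 0.39 and 1.10, and the glucocorticoid list has the lowest median, -1.49.

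Most genes of cell division were higher in tet-MYCshRNA by adjusted p, beside 33.5% of all genes, and few were called, beside 5.18% of all genes called higher. In the list for DNA replication, which holds the MCM helicase, GINS and polymerase subunits, 26 of 29 genes were higher and 0 lower by adjusted p, with a median of 0.70. Most of these differences were moderate, and only GINS2, a subunit of the replicative helicase, was called. GINS2 had 17.4, 16.5 and 14.9 CPM in tet-MYCshRNA and 3.92, 3.73 and 3.37 CPM in tet-MUC1shRNA, a log2 difference of 2.14 ± 0.10. PCNA, the polymerase clamp, had 223, 214 and 198 CPM in tet-MYCshRNA and 106, 108 and 112 CPM in tet-MUC1shRNA, a log2 difference of 0.96 ± 0.05 that fell short of the call. In the mitosis list 22 of 30 genes were higher and 3 lower by adjusted p, with a median of 0.57 and 3 called higher. MKI67, which encodes the proliferation antigen Ki-67, had 863, 869 and 871 CPM in tet-MYCshRNA and 199, 209 and 196 CPM in tet-MUC1shRNA, a log2 difference of 2.10 ± 0.04, and lay between the lines in 3D cells at 518, 582 and 469.6 CPM. The other called genes were the kinetochore proteins CENPF and CENPE, at log2 1.83 ± 0.04 and 1.57 ± 0.05, whereas CCNB1, the mitotic cyclin, differed by 0.34 ± 0.04. CDC25B, a phosphatase that activates mitotic kinases, was the lowest member, at a log2 difference of -1.22. These levels do not measure the share of cells in each phase.

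Replication-dependent histone genes, which are transcribed in S phase, formed the list with the highest median, 1.10. They were listed after earlier values of these data had been seen. Of 58 tested, 23 were called higher and 4 lower, beside 5.18% and 5.38% of all genes, and 44 were higher and 6 lower by adjusted p, beside the 33.5% and 33.2% of all genes. Their summed level was 4663 to 5755 CPM in tet-MYCshRNA, 2343 to 2708 CPM in tet-MUC1shRNA and 4222 to 4833 CPM in 3D cells, so the tet-MUC1shRNA libraries were the low ones. The 5 linker histone genes tested, which encode the H1 proteins that bind DNA between nucleosomes, were all called higher. H1-5 had 473, 442 and 378 CPM in tet-MYCshRNA and 31.1, 29.5 and 25.9 CPM in tet-MUC1shRNA, a log2 difference of 3.90 ± 0.09, and 320.3, 289.9 and 328 CPM in 3D cells. H1-3 had 160.3, 147 and 128 CPM in tet-MYCshRNA and 20.6, 21 and 19.9 CPM in tet-MUC1shRNA, a log2 difference of 2.81 ± 0.07. H1-1 had 121 counts in the tet-MYCshRNA libraries and none in tet-MUC1shRNA. H1-2 and H1-4, the more abundant linker histones of somatic cells, differed by log2 1.75 ± 0.08 and 1.56 ± 0.07.

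Core histone genes, which encode the proteins of the nucleosome itself, were called in both directions. H2AC14 had 17.4, 15.7 and 13.2 CPM in tet-MYCshRNA and 1.19, 1.07 and 1.45 CPM in tet-MUC1shRNA, a log2 difference of 3.61 ± 0.14. H4C12 had 86.7, 80.7 and 38.6 CPM in tet-MYCshRNA and 6.22, 6.25 and 4.41 CPM in tet-MUC1shRNA, a log2 difference of 3.61 ± 0.43. The difference of both was larger than that of H1-2 and H1-4. At the threshold of the call, H2AC20 had 369, 326 and 280.2 CPM in tet-MYCshRNA and 123, 109.6 and 102 CPM in tet-MUC1shRNA, a log2 difference of 1.53 ± 0.10. H2BC21 had 249, 209 and 480.1 CPM in tet-MYCshRNA and 412, 357 and 352 CPM in tet-MUC1shRNA, a log2 difference of -0.26 ± 0.38 that did not pass the test. H3C15 went the other way, with 4.33, 4.06 and 1.55 CPM in tet-MYCshRNA and 35.3, 29.5 and 28.8 CPM in tet-MUC1shRNA, and H4C9, H4C11 and H4C14 were also called lower, the last 2 not without tet-MYCshRNA replicate 3 (-1.456 and -1.471). Core histone genes of 1 family are near-identical copies, so reads can be split between them and single members are uncertain. Most of these mRNAs end in a stem-loop instead of a poly(A) tail, so their level in poly(A) libraries also depends on how completely untailed RNA was removed. Untailed RN7SL1, the signal recognition particle RNA, was at 411 to 1001 CPM in the 6 tet-MUC1shRNA libraries and 880 to 1994 CPM in the other 15, ranges that overlap. The annotation class that holds RN7SL1 and RN7SKP80 summed to 685 to 1467 CPM in the 6 and 2884 to 5607 CPM in the 15, without overlap. Small nuclear RNAs summed to 96.4 to 280 and 43 to 650 CPM, and small nucleolar RNAs to 174 to 371 and 103 to 298 CPM, both with overlap. The part of this removal in the histone difference was not tested.

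**Figure D4:**
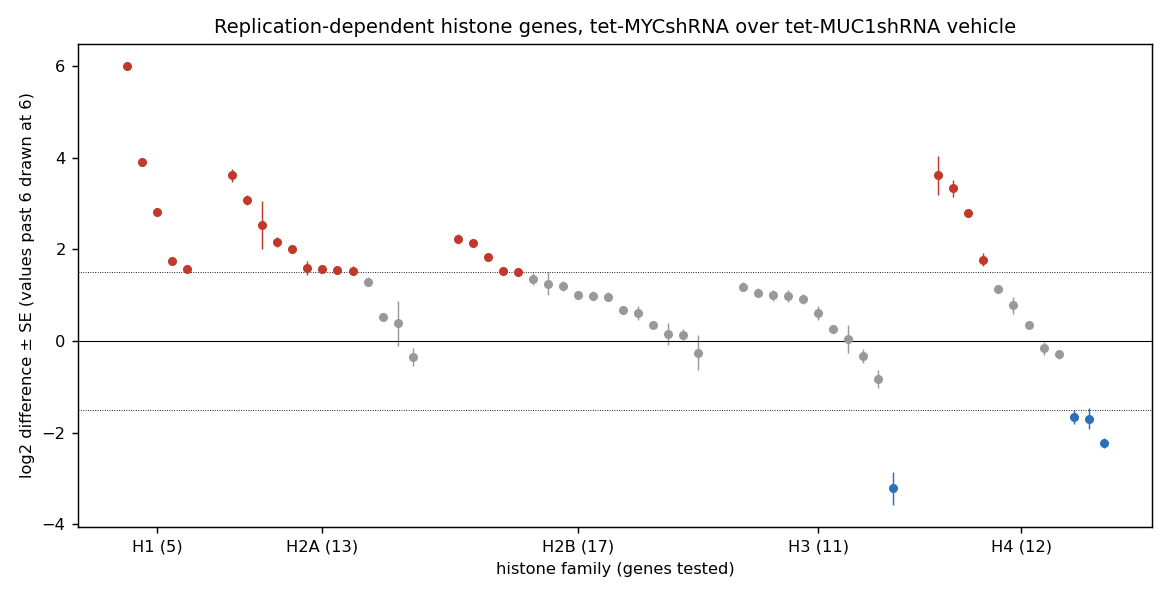
Log2 difference between the lines ± SE for the 58 replication-dependent histone genes tested, grouped by family and ordered within it, with genes called higher in tet-MYCshRNA in red, called lower in blue and others in grey; the value past 6 (H1-1) is drawn at 6 without its error. Every H1 gene shown is positive, whereas the other 4 families hold genes on both sides of 0.

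Ribosome biogenesis genes leaned the same way more weakly, with 17 of 28 higher and 5 lower by adjusted p and a median of 0.39, beside 33.5% and 33.2% of all genes. Only NOP56, a core protein of box C/D snoRNPs, was called, with 139.7, 138 and 129 CPM in tet-MYCshRNA and 40.3, 44 and 41.4 CPM in tet-MUC1shRNA. That share was below the 5.18% of all genes called higher but near that of protein-coding genes, 471 of 13160. The 13 protein-coding genes of mitochondrial DNA had a median of 0.68, with 10 higher and 1 lower by adjusted p. MT-ND1 had 1844, 2075 and 2244 CPM in tet-MYCshRNA and 1108, 1049.5 and 973 CPM in tet-MUC1shRNA, a log2 difference of 0.97 ± 0.07. MT-CO1 had 8164, 8836 and 9269.8 CPM in tet-MYCshRNA and 6717, 6134 and 5667 CPM in tet-MUC1shRNA, a log2 difference of 0.50 ± 0.07. Only MT-ATP8 was called, at 2.07 ± 0.08, and it overlaps MT-ATP6 on the same strand, so reads of the 2 genes can be hard to part. The 39 nuclear genes of the electron transfer chain did not move as a block, with 17 higher and 16 lower by adjusted p, a median of 0.12 and 0 called by edgeR or DESeq2 (33 at an unadjusted p under 0.05).

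The stem cell marker list was split. Of 12 tested, 4 were called higher (ALDH1A1, SOX2, POU5F1 and CD24) and 2 lower (KLF4 and LGR5), beside 5.18% and 5.38% of all genes. CD24, a surface glycoprotein whose absence is used to mark stem-like breast cells, had 20.5, 16.8 and 17.1 CPM in tet-MYCshRNA and 5.55, 4.18 and 4.68 CPM in tet-MUC1shRNA, a log2 difference of 1.91 ± 0.11. SOX2, a pluripotency factor, had 0.433, 0.26 and 0.194 CPM in tet-MYCshRNA and no count in tet-MUC1shRNA. POU5F1, the pluripotency factor OCT4, averaged 0.558 and 0.0949 CPM. SOX2 and POU5F1 thus stayed under 1 CPM in both lines.

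Genes induced by glucocorticoids were lower in tet-MYCshRNA, with 10 of 11 tested lower and 1 higher by adjusted p, 5 called lower and a median of -1.49, beside 33.2% of all genes lower by adjusted p and 5.38% called lower. TSC22D3, the glucocorticoid-induced leucine zipper, had 81.4, 77 and 76.5 CPM in tet-MYCshRNA and 675, 599.8 and 542 CPM in tet-MUC1shRNA, with 256, 233 and 237 CPM in 3D cells. Its log2 difference was -2.96 ± 0.07 (adjusted p = 4e-14, edgeR's quasi-likelihood test). SGK1, a serum- and glucocorticoid-regulated kinase, had 28.2, 29.6 and 29.1 CPM in tet-MYCshRNA and 105, 108 and 116 CPM in tet-MUC1shRNA, a log2 difference of -1.93 ± 0.06. CRISPLD2, a secreted glycoprotein, and ZBTB16, a zinc-finger repressor, differed by -2.99 ± 0.11 and -1.70 ± 0.07. FKBP5, the co-chaperone that reports receptor activity in many cells, was abundant and differed less, with 1503, 1468 and 1483 CPM in tet-MYCshRNA and 2091, 2188 and 2319 CPM in tet-MUC1shRNA and a log2 difference of -0.58 ± 0.05.

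Metallothioneins, small cysteine-rich proteins that bind zinc and copper, held some of the largest falls. MT1M had 2.89, 3.12 and 2.44 CPM in tet-MYCshRNA and 95.1, 93.8 and 91.2 CPM in tet-MUC1shRNA, with 14.5, 13 and 16.5 CPM in 3D cells, and a log2 difference of -5.04 ± 0.08. MT1X had 196, 170.3 and 140.3 CPM in tet-MYCshRNA and 808, 854 and 834 CPM in tet-MUC1shRNA, a log2 difference of -2.31 ± 0.10, with 296, 298 and 351 CPM in 3D cells. MT1F, at 0.245 ± 0.0736 against 3.58 ± 0.68 CPM (mean ± SD, n = 3 each), was called lower as well. MT2A, the most abundant member, did not move with them. It had 1758, 1408 and 1147 CPM in tet-MYCshRNA and 1116, 1079.9 and 1054 CPM in tet-MUC1shRNA, a log2 difference of 0.40 ± 0.15 with an adjusted p of 0.079 by edgeR, so MT2A was short of the call and on the opposite side of 0. MT1E was at log2 -1.47 ± 0.06, just short of the call. The brain-enriched MT3, under 2 CPM in both lines, was called lower. With the zinc transporters, 4 of 11 tested genes of the list were called lower, beside 5.38% of all genes, and 0 higher, with a median of -0.51. The metallothionein genes are similar paralogs on chromosome 16, so reads can be split between them.

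MT1X and MT2A lie on the same strand of chromosome 16, MT1X was called lower and MT2A was not called, and their promoters are shown because metallothionein genes are known to be switched on by zinc through MTF1, which binds metal response elements. Each is the 250 bases upstream of the RefSeq gene start in GRCh38.p14, 5′ to 3′ on the gene's strand (+), chr16:56682220-56682469 for MT1X and chr16:56608334-56608583 for MT2A. Capitals mark the metal response element core, searched as TGCACNC and TGCGCNC on both strands.
MT1X: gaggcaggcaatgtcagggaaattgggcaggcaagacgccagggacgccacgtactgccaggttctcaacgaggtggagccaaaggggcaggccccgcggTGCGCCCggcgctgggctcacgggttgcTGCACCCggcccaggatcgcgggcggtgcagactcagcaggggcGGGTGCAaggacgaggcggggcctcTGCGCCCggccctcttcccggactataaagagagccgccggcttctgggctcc
MT2A: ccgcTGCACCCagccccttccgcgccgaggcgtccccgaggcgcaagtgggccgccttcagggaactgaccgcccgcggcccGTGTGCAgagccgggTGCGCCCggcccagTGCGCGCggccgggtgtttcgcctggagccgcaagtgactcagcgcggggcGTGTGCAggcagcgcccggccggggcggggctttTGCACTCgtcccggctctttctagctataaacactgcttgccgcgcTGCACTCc
The MT1X window held 4 cores and the MT2A window 7, and 0.37% of 35116 promoter windows of this length held at least 4. Both promoters thus carry these letters. A match is a description and not a bound site.

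Lipid synthesis genes were mostly lower in tet-MYCshRNA by adjusted p, beside 33.2% of all genes, with moderate differences, and 5.38% of all genes were called lower. In the cholesterol list 21 of 23 genes were lower and 2 higher by adjusted p, with a median of -0.82. Only MSMO1, a sterol demethylase, was called, with 203.3, 206 and 210.1 CPM in tet-MYCshRNA and 1105, 1093 and 1019 CPM in tet-MUC1shRNA and a log2 difference of -2.38 ± 0.05. HMGCS1, an early enzyme of the pathway, had 384, 399 and 415 CPM in tet-MYCshRNA and 931, 905 and 852 CPM in tet-MUC1shRNA, a log2 difference of -1.17 ± 0.05. In the fatty acid list 11 of 12 genes were lower and 1 higher by adjusted p, with a median of -0.72. FASN, the fatty acid synthase, had 944, 898 and 824 CPM in tet-MYCshRNA and 3468, 3448 and 3217 CPM in tet-MUC1shRNA, a log2 difference of -1.94 ± 0.05. ACSS2, which makes acetyl-CoA from acetate, was the other called gene, at -1.57 ± 0.05. SCD, the stearoyl-CoA desaturase, was high in both lines, at 5748 ± 18.4 against 11924 ± 586 CPM (mean ± SD, n = 3 each). The 3D level was between the lines for MSMO1, HMGCS1 and FASN and close to tet-MUC1shRNA for ACSS2, at means of 397, 572, 1990.3 and 408 CPM.

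Targets of ATF4, the transcription factor of the integrated stress response, were lower too. Of 25 tested, 22 were lower and 1 higher by adjusted p, beside 33.2% of all genes lower, 7 were called lower, and the median was -0.96. SESN2, a stress-induced inhibitor of mTORC1, had 28.1, 26.3 and 27.1 CPM in tet-MYCshRNA and 144, 143 and 115 CPM in tet-MUC1shRNA, a log2 difference of -2.31 ± 0.08. TRIB3, a pseudokinase, had 34.5, 31.3 and 30.8 CPM in tet-MYCshRNA and 128, 125 and 111 CPM in tet-MUC1shRNA, a log2 difference of -1.92 ± 0.06. GDF15, ATF3, CHAC1 and ASNS were called lower at log2 differences of -2.19, -1.95, -1.94 and -1.87. DDIT3, which encodes CHOP, had 4.80, 4.09 and 4 CPM in tet-MYCshRNA and 5.94, 7.30 and 6.97 CPM in tet-MUC1shRNA, a log2 difference of -0.66 ± 0.13. Endoplasmic reticulum chaperones had a median of -0.29 and 1 of 19 called lower, DNAJB9, at -2.20 ± 0.06, a share like the 5.38% of all genes.

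The lists of complement, cytokine and interferon-stimulated genes all had medians below 0. In the complement list, 9 of 11 genes were lower and 1 higher by adjusted p, with 4 called lower and a median of -0.83. Over all genes 33.2% were lower by adjusted p, and 5.18% were called higher and 5.38% lower. C1R, a protease of the classical pathway, had 11.5, 10.5 and 10.8 CPM in tet-MYCshRNA and 106, 100.5 and 102 CPM in tet-MUC1shRNA, a log2 difference of -3.25 ± 0.06. C1S, its partner and genomic neighbour, had 12.6, 11.2 and 10 CPM in tet-MYCshRNA and 54, 51.4 and 57.6 CPM in tet-MUC1shRNA. The regulator SERPING1, the C1 inhibitor, had a log2 difference of -3.50 ± 0.20. Among cytokines and chemokines 5 of 16 were called lower and 0 higher, with a median of -0.95, and IL6 had 3.07, 3.06 and 3.84 CPM in tet-MYCshRNA and 15.9, 19.1 and 16.3 CPM in tet-MUC1shRNA. The chemokine receptor CXCR4, named after its values were seen, averaged 0.272 and 3.44 CPM, a log2 difference of -3.71 ± 0.29. Interferon-stimulated genes had 5 called lower and 1 higher of 28, with a median of -0.53, and the called ones were low in both lines, with OAS2, OASL, SAMD9 and IFITM1 all under 3 CPM.

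Among NOTCH genes 11 of 14 were lower and 1 higher by adjusted p and 4 were called lower, with a median of -0.59, where all genes gave 33.2% lower by adjusted p and 5.38% called lower. Besides the receptor NOTCH3, these were the ligands JAG1 and DLL1 and the target HEY1. The call of DLL1 was lost with scaling by library size alone (-1.471) and without tet-MUC1shRNA replicate 1 (-1.302), tet-MYCshRNA replicate 1 (-1.433) or tet-MYCshRNA replicate 3 (-1.27). HEY1, a transcriptional repressor induced by NOTCH, had 10.6, 9.22 and 9.59 CPM in tet-MYCshRNA and 58, 61 and 49 CPM in tet-MUC1shRNA, and its 3D level of 8.37, 10.1 and 9.58 CPM lay with tet-MYCshRNA. JAG1 had 7.41, 6.58 and 6.96 CPM in tet-MYCshRNA and 23.1, 25.5 and 24.4 CPM in tet-MUC1shRNA. In the TGF-beta and BMP list 5 of 28 were called lower, among them the BMP targets ID1, ID2, ID3 and SMAD6, and 1, the ligand BMP2, was called higher. The calls of BMP2 and ID1 were near the threshold and were each lost with any of 3 libraries left out. ID2 had 8.34, 8.27 and 8.80 CPM in tet-MYCshRNA and 39.6, 34.5 and 37.9 CPM in tet-MUC1shRNA, a log2 difference of -2.15 ± 0.08. CCN2, a secreted matricellular protein and YAP target, had 28.8, 29.4 and 28 CPM in tet-MYCshRNA and 216, 169 and 171 CPM in tet-MUC1shRNA, a log2 difference of -2.70 ± 0.08, and was the only called gene among 20 contractile and YAP target genes, a share no higher than over all genes, with a median of 0.11.

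Matrix genes went both ways. COL15A1, a basement membrane collagen, had 28.7, 26.1 and 27.4 CPM in tet-MYCshRNA and 231, 211 and 227 CPM in tet-MUC1shRNA, a log2 difference of -3.03 ± 0.05. LAMA5, a laminin chain, averaged 77.7 CPM in tet-MYCshRNA and 233 CPM in tet-MUC1shRNA, and LAMB2, another, differed by log2 -1.51 ± 0.05, at the threshold. Of 24 collagens 3 were called higher and 3 lower, and of 24 integrins and laminins 1 higher and 2 lower, beside 5.18% and 5.38% of all genes, so the latter list was near the share over all genes. Of 15 matrix metalloproteinases and inhibitors 2 were called higher and 3 lower, and their median of -0.29 was 0.06 with no filter beyond 1 count. The inhibitor TIMP2 had 31.3, 30.2 and 27.6 CPM in tet-MYCshRNA and 91.4, 84.4 and 84.3 CPM in tet-MUC1shRNA, a log2 difference of -1.55 ± 0.06.

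Glycolysis, a subject of the series, and hypoxia targets held 2 called genes between them, a smaller share than the 10.6% of all genes, while 33.2% of all genes were lower by adjusted p. In the glycolysis list 14 of 23 genes were lower and 6 higher by adjusted p, with a median of -0.25 and 2 called lower. SLC2A3, the glucose transporter GLUT3, had 28.4, 29.3 and 32.9 CPM in tet-MYCshRNA and 111, 84.7 and 98.7 CPM in tet-MUC1shRNA, a log2 difference of -1.71 ± 0.10. ALDOC, an aldolase, had 97.2, 89 and 90.2 CPM in tet-MYCshRNA and 294, 262 and 224 CPM in tet-MUC1shRNA, and its log2 difference lay just past the threshold, with no call by DESeq2 (-1.493) or by edgeR under the other filters (-1.475 and -1.484). LDHA, the lactate dehydrogenase, was slightly higher in tet-MYCshRNA, with 1751, 1741 and 1692 CPM in tet-MYCshRNA and 1537, 1344 and 1446 CPM in tet-MUC1shRNA, a log2 difference of 0.25 ± 0.05. GAPDH had 3873, 3571 and 3569 CPM in tet-MYCshRNA and 8425, 6968 and 6659 CPM in tet-MUC1shRNA, a log2 difference of -1.01 ± 0.07, and is uncertain because of its many pseudogenes. Of 22 hypoxia targets outside glycolysis 19 were lower and 3 higher by adjusted p, with a median of -0.59 and 0 called by edgeR or DESeq2 (22 at an unadjusted p under 0.05). VEGFA, the angiogenic growth factor, had 331, 349 and 347 CPM in tet-MYCshRNA and 625, 488 and 522 CPM in tet-MUC1shRNA. CA9, the hypoxia-induced carbonic anhydrase, had 22.5, 21.3 and 22.6 CPM in tet-MYCshRNA and 49.8, 33.6 and 37.3 CPM in tet-MUC1shRNA.

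The direction of the circadian list depended on the filter on low counts, and its size on single libraries. Its median of -0.61 was 0.02 with no filter beyond 1 count and -0.306 and -0.346 without tet-MUC1shRNA replicate 1 or 2, and 2 of 17 genes were called lower, the output factors DBP and TEF. DBP had 1.15, 1.33 and 1.10 CPM in tet-MYCshRNA and 6.12, 4.78 and 4.90 CPM in tet-MUC1shRNA. PER1, a clock repressor that glucocorticoids also induce, had 112, 102 and 98.9 CPM in tet-MYCshRNA and 241, 237 and 193 CPM in tet-MUC1shRNA, a log2 difference of -1.11 ± 0.08. The counts for cell identity genes stand beside the 10.6% of all genes that were called. Of 14 mesenchymal genes 1 was called lower, S100A4, and of 10 epithelial genes 1, ESRP1, which stayed under 1 CPM. Of 6 keratins tested 2 were called higher and 1 lower, and KRT5, a basal keratin, averaged 5.20 and 1.20 CPM against 23.8 CPM in 3D cells. The keratin median of -0.22 was 0.19 with no filter beyond 1 count, and above 0 also without tet-MUC1shRNA replicate 3 (0.066), tet-MYCshRNA replicate 1 (0.221) or tet-MYCshRNA replicate 2 (0.213).

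Receptors and developmental genes split by member. The counts of called genes stand beside 5.18% of all genes higher and 5.38% lower. EPHA7, an ephrin receptor kinase, had 22.3, 23.2 and 23.2 CPM in tet-MYCshRNA and 2.28, 1.68 and 1.39 CPM in tet-MUC1shRNA, a log2 difference of 3.69 ± 0.13, and 2 of 30 receptor kinases and EGF family ligands were called higher against 5 lower. FZD1, a WNT receptor, had 17.7, 18.1 and 16.4 CPM in tet-MYCshRNA and 5.71, 4.15 and 4.32 CPM in tet-MUC1shRNA, and 3 of 28 WNT genes were called higher against 2 lower. HOXC9 averaged 8.82 and 2.51 CPM, and 3 of 25 HOX genes were called higher and 3 lower. CDKN2B, the CDK inhibitor p15, had 60.7, 57.6 and 59.4 CPM in tet-MYCshRNA and 212, 221 and 222 CPM in tet-MUC1shRNA, a log2 difference of -1.89 ± 0.05, and 2 of 19 p53 targets and CDK inhibitors were called lower and 0 higher. MAFF, a small MAF factor, had 27.7, 27.4 and 28 CPM in tet-MYCshRNA and 132, 117 and 100.2 CPM in tet-MUC1shRNA, and 3 of 22 immediate early genes were called lower and 1 higher. TET1, a DNA demethylase, was the only called gene among 24 Polycomb and DNA methylation genes, at -1.72 ± 0.16.

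For the remaining lists, too, the counts stand beside 10.6% of all genes called. Of 24 NRF2 targets 1 was called, FTL, the ferritin light chain, which had 2377, 2175 and 2010.5 CPM in tet-MYCshRNA and 12419, 10935 and 10253 CPM in tet-MUC1shRNA and is uncertain because of its pseudogenes. Of 32 ribosomal protein genes 2, RPL30 and RPL19, were called higher. RPL19 is uncertain too, since it had 157 to 288 CPM in all 6 tet-MUC1shRNA libraries and 578 to 981 CPM in the other 15. Of 19 aldo-keto reductases and aldehyde dehydrogenases 2 were called higher and 2 lower, of 15 MHC class I genes 1 and 1, of 8 S100 proteins 0 and 3, and of 5 mucins 0 and 2. No gene of the MYC, MAX and MXD network (11 tested), of the ABC efflux transporters (6) or of the cancer-testis antigens (2) was called by edgeR or DESeq2, although 8, 4 and 2 of them, in that order, had an unadjusted p under 0.05.

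The same lines were also sequenced after DOX, in 6 libraries that share none with the vehicle comparison. DOX induces the shRNA against MYC or MUC1, so differences there hold the effect of silencing as well as that of line and passage. Of the genes called with vehicle, 334 of 992 higher genes (33.7%) and 329 of 1030 lower genes (31.9%) were called the same way with DOX, which was 21.8% and 19.0% of the DOX calls. A further 150 (7.42%) were called the opposite way. Of the protein-coding genes called with vehicle, 267 were called the same way with DOX, 134 the opposite way and 599 not at all, the rest not being tested there. Of the 12 largest rises 7 were called the same way and 2 the opposite way, and of the 12 largest falls 5 and 2.

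Some genes were called in the same direction with vehicle and with DOX. ALDH1A1 had 49.9, 44.5 and 52.6 CPM in tet-MYCshRNA and 0.0363, 0.199 and 0.315 CPM in tet-MUC1shRNA with DOX, a log2 difference of 8.07 ± 0.26. PEX5L, a regulator of HCN channel trafficking, had 318, 324 and 332 CPM in tet-MYCshRNA and 22.9, 26.4 and 26.8 CPM in tet-MUC1shRNA with vehicle and 628, 573 and 602 CPM against 28.8, 31 and 31.9 CPM with DOX. It had 8.12, 8.37 and 6.43 CPM in 3D cells, so both lines were above 3D cells, and tet-MYCshRNA the further. RORB and SYT7, a nuclear receptor and a synaptotagmin, differed by log2 3.74 and 3.87 with vehicle and 4.64 and 5.50 with DOX. SMARCA2, the BRM ATPase of SWI/SNF, averaged 15.5 against 1.92 CPM with vehicle and 27.6 against 3.11 CPM with DOX. Among lower genes, CCN2 differed by -2.70 and -2.77, DNAH2 by -8.43 and -7.54, and MAP2 and GABBR2, a neuronal microtubule protein and a GABA-B receptor subunit, by -3.00 and -2.95 with vehicle and -3.37 and -3.53 with DOX.

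Other large vehicle differences were not called with DOX. KCND1 averaged 3.41 CPM in tet-MYCshRNA and 3.81 CPM in tet-MUC1shRNA with DOX, a log2 difference of -0.19 ± 0.18. The change between the arms was -6.11 ± 0.21 in the interaction fit over 12 libraries. UNC13A differed by -0.26 ± 0.10 with DOX, a change of 4.40 ± 0.17. Both genes were chosen for a large vehicle difference and no call with DOX. That choice by itself makes the change large, so its test adds nothing for them. Several list medians also changed sign or size. The median of the DNA replication list was 0.70 with vehicle and -0.34 with DOX, that of the hypoxia list -0.59 and 1.13, that of the complement list -0.83 and 0.90, that of the interferon-stimulated genes -0.53 and 2.77, and that of the glucocorticoid list -1.49 and 0.14. Histones had medians of 1.10 and 0.14, ATF4 targets -0.96 and -0.02, and the cholesterol list -0.82 and -0.36. Each pair of values comes from separate libraries of the same lines, and the change between the arms was tested for single genes and not for these medians.

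**Figure D5:**
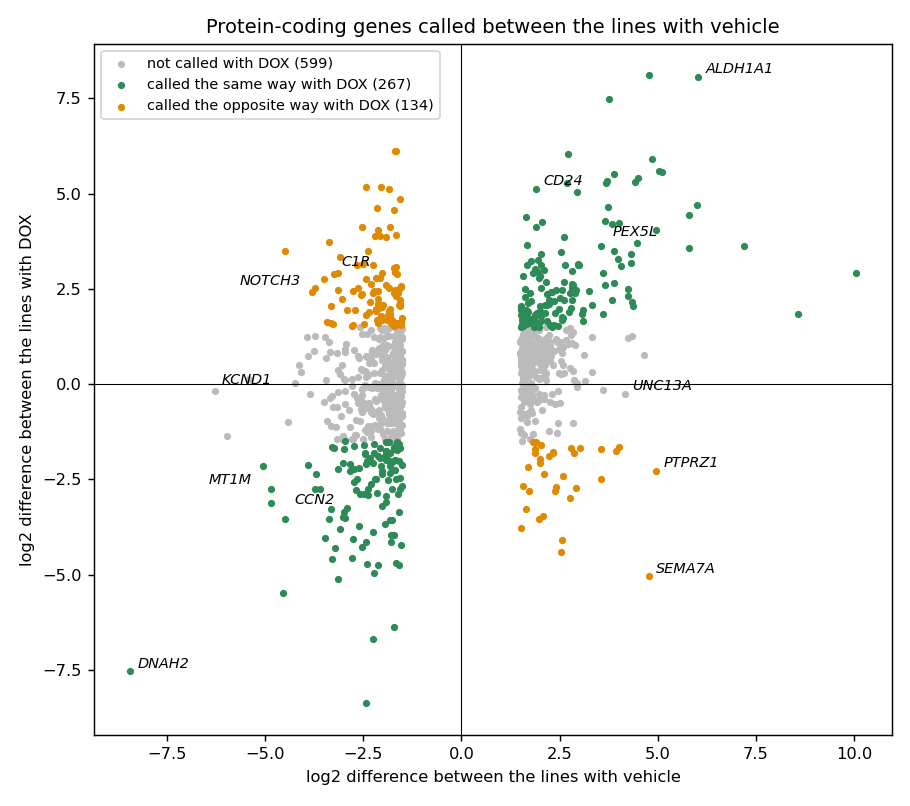
Log2 difference between the lines with vehicle (horizontal) and with DOX (vertical) for the protein-coding genes called with vehicle and tested with DOX: 267 called the same way in green, 134 the opposite way in orange and 599 not called with DOX in grey. ALDH1A1, PEX5L, DNAH2 and CCN2 lie in the corners where the sign is shared, SEMA7A, PTPRZ1, NOTCH3 and C1R where it is opposite, and KCND1 and UNC13A near 0 on the vertical axis.

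Along the genome the differences were spread over all chromosomes, with chromosome medians of protein-coding genes between -0.22 (chromosome 9) and 0.24 (chromosome 18). In 2527 windows of 25 neighbouring genes, stepped by 5, the central 90% of medians ran from -0.35 to 0.34. The highest window median, 1.14, was at chr6:26033092-26394874 in the histone cluster, where 10 genes were called higher, so it repeats the histone result above. The lowest, -0.79, was at chr19:48630030-49362457, where 7 genes were called lower and 1 higher. That window holds DBP and the uncertain FTL, as well as NUCB1 at -0.79 ± 0.06 and RUVBL2 at 0.90 ± 0.08, so its genes differed in both directions, and with DOX its median was 0.15. The 4 windows above 0.5 in both arms were an overlapping pair on chromosome 17 and another on chromosome 19, the latter among zinc finger genes with 0 and 1 called higher by edgeR. The single window below -0.5 in both arms, at chr3:9866711-12586208, had medians of -0.58 and -0.69 and 5 genes called lower with vehicle, CIDEC among its genes. The window at chr17:35731639-38825355 had medians of 0.63 with vehicle and 0.62 with DOX, with 3 genes called higher with vehicle. Its PSMB3, a proteasome subunit, had 129.8, 122 and 111 CPM in tet-MYCshRNA and 79.1, 79.1 and 74.1 CPM in tet-MUC1shRNA, and its ACACA, the acetyl-CoA carboxylase, was lower at -0.40 ± 0.04. The genome copy number of the 2 lines was not analysed here.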

How the data were processed

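The authors extracted total RNA from cultured BT-549 cells, prepared stranded poly(A) libraries, sequenced paired ends, and deposited raw counts per gene made with STAR on GRCh38 and featureCounts. The submitters' processing notes name STAR 2.7.3a and CASAVA 1.8.2. The annotation release, strand setting and handling of reads with several matches are not given in the sources used here. Cells of the table left empty for whole blocks of libraries were read as 0. Groups, treatments and passages (6 and 8) come from the sample labels.

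For each comparison only its 6 libraries entered the fit, made with edgeR 4.0.16 in R 4.3.3: filterByExpr, TMM scaling and the robust quasi-likelihood test with Benjamini-Hochberg adjustment over all genes tested. The change of the line difference between vehicle and DOX was tested as an interaction over 12 libraries. The test was checked on simulated counts. CPM values use TMM factors over all 21 libraries. No replicate libraries were identical, and those of the vehicle groups differed beyond counting error (chi-square over its degrees of freedom, 5.65 to 18.6).

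Named genes are MUC1, MYC, the 12 protein-coding genes with the largest rise and fall among called genes with a mean normalized count of at least 100 over the 6 libraries and no overlap between libraries, up to 4 called members of each of 46 gene lists (or the 2 most abundant where none was called), genes present in 1 line alone, up to 4 abundant genes of each chromosome window, and further genes named after their values were seen: among these are VIM, FN1, EPCAM, CDH1, PGR, PCNA, CCNB1, H1-2 to H1-4, H2AC20, H2BC21, H3C15, MT2A, MT1E, FKBP5, ZBTB16, HMGCS1, SCD, TRIB3, ASNS, DDIT3, LDHA, GAPDH, VEGFA, CA9, PER1, MT-ND1, MT-CO1, PEX5L, RORB, SYT7, SMARCA2, MAP2, GABBR2 and CXCR4. Members and lists were chosen with earlier results of these data known. Promoter sequences are RefSeq's. Alternatives were DESeq2 1.42.0, other scalings and filters, a replicate block, all 21 libraries in 1 fit, leaving out each library and, added after seeing the data, protein-coding genes alone.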

Additional observations from a re-analysis of the deposited data

Results flagged for a closer look

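For 22 of the 157 named genes tested in both arms the difference between the lines was called in opposite directions with vehicle and with DOX. Over all genes called with vehicle, pseudogenes included, the share was 7.42%. Of the protein-coding genes called with vehicle, 134 were called the opposite way, 267 the same way and 599 not at all. The 157 include genes not called with vehicle, so these shares have unlike bases. The opposite calls by themselves make the change between the arms large, so its test adds nothing for these genes. The change is given here as the log2 difference between the lines with vehicle minus that with DOX. It was positive, that is, the tet-MYCshRNA level was the higher with vehicle and the lower with DOX, for SEMA7A (9.81), PTPRZ1 (7.22), MMP3 (6.91), WNT7B (6.65) and HBEGF (3.31). It was negative for OAS2 (-7.27), SERPING1 (-6.28), CNR1 (-6.27), NOTCH3 (-6.24), C1R (-6.17), IFITM1 (-5.95), COL15A1 (-5.30), OASL (-4.93), MT3 (-4.88), MMP11 (-4.66), S100A3 (-4.66), SLC2A3 (-4.11), PDGFRA (-4.03), DLL1 (-3.79), JAG1 (-3.66), TGFBI (-3.40) and LAMB2 (-3.26). SEMA7A had 10.1, 10.2 and 7.96 CPM in tet-MYCshRNA with vehicle and 0.396, 0.226 and 0.355 CPM with DOX, and 0.493, 0.187 and 0.348 and 10.6, 10.1 and 11.2 CPM in tet-MUC1shRNA. NOTCH3 had 2.99, 2.99 and 3.68 and 18.9, 28.4 and 23.7 CPM in tet-MYCshRNA and 45.9, 43.6 and 43.3 and 4.46, 5.30 and 3.20 CPM in tet-MUC1shRNA. C1R had 11.5, 10.5 and 10.8 and 299, 388 and 368 CPM, and 106, 100.5 and 102 and 45.5, 49 and 44.6 CPM, in the same order. The vehicle calls of LAMB2, DLL1, PDGFRA and IFITM1 were lost when 1 library was left out. DOX switches on a different shRNA in each line, so silencing and line cannot be told apart in these changes.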

How the results depend on the processing

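The count of 2022 genes called between the lines with vehicle depended most on the filter and the fold threshold. It was 1133 (445 higher and 688 lower, beside 992 and 1030) with at least 10 counts in every library, 3122 with no filter beyond 1 count, 7622 with an absolute fold change over 1.5 and 1059 for protein-coding genes alone. The same settings gave 1763, 9277 and 1865 genes for the lines with DOX (at least 10 counts, fold over 1.5 and protein-coding genes alone), 799, 2391, 5993 and 802 for tet-MUC1shRNA vehicle against 3D cells (with no filter second), and 618, 3945 and 866 for tet-MYCshRNA vehicle against 3D cells (at least 10 counts, fold over 1.5, protein-coding genes alone). Genes called the same way with vehicle and with DOX were 663, or 339, 3033 and 268 under at least 10 counts, fold over 1.5 and protein-coding genes alone. With 1 library left out at a time there were 2261 to 2412 genes with vehicle, 3509 to 4036 with DOX, 1831 to 1953 and 1250 to 1450 against 3D cells for tet-MUC1shRNA and tet-MYCshRNA, and 653 to 718 shared genes. DESeq2, which was run on the 36260 genes with no filter beyond 1 count, called 2762 genes with vehicle, and scaling by library size alone called 1111 higher and 904 lower, with all medians shifted by 0.085. The replicate block gave 2055 genes with vehicle. Same-numbered libraries of the 2 lines correlated at 0.153, 0.0144 and 0.138 in their deviations from the group means, so the numbers were not taken to pair them. Of the 47 gene list medians, 33 were below 0, and 30 to 33 with a library left out. The medians of 8 lists changed sign in some setting: keratins (0.157 with DESeq2, 0.185 with no filter, -0.211 to 0.221 with a library left out), matrix metalloproteinases (0.051 and 0.061), the circadian clock (0.019 and 0.021), receptor kinases (-0.039 with at least 10 counts), and, from medians closer to 0, NRF2 targets (up to 0.047, with library size alone), the MYC network (up to 0.044, likewise), S100 proteins (up to 0.176) and luminal markers (0.006), the last 2 with a library left out. No gene printed with its log2 difference changed direction in the alternatives run with vehicle. Calls near the threshold were lost when 1 library was left out: without tet-MUC1shRNA replicate 1 for ALDOC (-1.42), LAMB2 (-1.47), DLL1 (-1.30) and PDGFRA (-1.48), without tet-MUC1shRNA replicate 3 for H2AC20 (1.47), without tet-MYCshRNA replicate 1 for DLL1 (-1.43) and H2AC20 (1.45), without tet-MYCshRNA replicate 2 for ALDOC (-1.46) and LAMB2 (-1.48), and without tet-MYCshRNA replicate 3 for ALDOC (-1.48), LAMB2 (-1.46), TIMP2 (-1.495), DLL1 (-1.27) and IFITM1 (-1.45). The same held for BMP2 without tet-MUC1shRNA replicates 1 (1.439) or 3 (1.485) or tet-MYCshRNA replicate 2 (1.472), for ID1 without tet-MUC1shRNA replicates 2 (-1.491) or 3 (-1.477) or tet-MYCshRNA replicate 3 (-1.42), and for H4C11 (-1.456) and H4C14 (-1.471) without the latter. MT1E passed the call without tet-MYCshRNA replicate 1 (-1.54). ALDOC also missed it with DESeq2 (-1.493), at least 10 counts (-1.475), no filter (-1.484), protein-coding genes alone (-1.488), library size alone (-1.419) and the replicate block (-1.499), and LAMB2 with the first 5 of these (-1.493, -1.476, -1.486, -1.488 and -1.42). With library size alone ACSS2 (-1.48), TIMP2 (-1.47), DLL1 (-1.47), KLF4 (-1.472) and ID1 (-1.434) missed it too, and ID1 also with at least 10 counts (-1.488) and with no filter. The causes were not tested. What depth limits was not tested beyond the filters on low counts.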
